A study of Mus musculus with 8 samples.

Results

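The genes described here are the enzymes of glycolysis with the transporters for glucose and lactate, 30 genes of the 24506 in the count table, chosen by symbol. They comprise 4 transporters, 9 genes of the hexose phase, 8 of the triose phase, 5 that set the fate of pyruvate, and 4 regulators and shuttle genes. All 30 passed the filter on low counts, which left 13775 genes for testing. Glycolysis splits glucose into pyruvate and yields ATP and NADH. Glucose enters through SLC2A transporters, is trapped by hexokinases, is split by aldolase and is oxidised through the triose steps. Pyruvate is then either reduced to lactate by lactate dehydrogenase and exported, or burned in mitochondria, and proliferating lymphocytes and thymocyte progenitors are known for running the lactate branch even in air. IL-7, acting in part through STAT5 and the PI3K-AKT pathway, is known from work on lymphocytes as a signal that maintains glucose uptake.

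RNA was sequenced in bulk from mouse T progenitors at the DN2 stage, which were grown from bone marrow and sorted on both sides of T-lineage commitment. The sgStat5 cells received 3 guide RNAs against Stat5a and 3 against Stat5b by retrovirus, and control cells received control guides of unstated target. Cells of all 4 groups came from B6 mice that carry Cas9, a Bcl2 transgene and a Bcl11b-mCherry reporter. Bone-marrow progenitors were held overnight in IL-7, Flt3 ligand and SCF, transduced, and kept for 6 days on OP9-DLL1, a stromal line that displays the Notch ligand DLL1, in medium holding 10 ng/ml of IL-7 and the same dose of Flt3 ligand. The late groups are CD25-positive cells that express the mCherry reporter of Bcl11b, labelled post-commitment, and the early groups are CD25-positive mCherry-negative cells, labelled pre-commitment. The 4 groups, with 2 libraries each, are therefore late sgStat5, late control, early sgStat5 and early control. The series text describes the late cells both as mCherry-positive and as reporter negative. IL-7 was present throughout in all groups, and a guide-transduced pool can hold cells in which a gene was not cut.

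Total counts ran from 22146490 to 31209177 per library, and values below are given in the order replicate 1, replicate 2. CPM stands for counts scaled to a common library total after TMM normalization, and FPKM for the authors' depth-scaled fragments per kilobase of transcript. Stat5a had 116 and 107 CPM in late sgStat5 and 257 and 238 CPM in late control libraries, and 106 and 105 CPM in early sgStat5 against 258 and 257 CPM in early control libraries. Stat5b had 154 and 135 CPM in late sgStat5 against 280 and 255 CPM in late control, and 144 and 133 CPM in early sgStat5 against 255 and 248 CPM in early control. The targeted RNAs were therefore lower in every sgStat5 library, with log2 fold changes of -1.15 and -0.89 in the late gate and -1.29 and -0.86 in the early gate (edgeR, largest adjusted p 0.0280). This checks the guide labels, although RNA does not measure the share of alleles cut. Bcl11b had 415 to 797 CPM in late sgStat5 and 219 to 542 in late control libraries, against 70.1 to 132 in early sgStat5 and 45.6 to 132 in early control. Between the late groups its log2 fold change for the guides was 0.67 by edgeR (adjusted p = 0.755). With the replicate block described below it was 0.74 and called higher in late sgStat5 (adjusted p = 0.0106). The part of this Bcl11b difference in the late guide effects was not tested. The 10 markers of T progenitors were all detected in every library and summed to 3896 to 7315 CPM. The 13 markers of OP9 stroma summed to 262 to 560 CPM in late sgStat5, 244 to 613 in late control, 121 to 331 in early sgStat5 and 155 to 374 in early control libraries, and were higher in replicate 2 of every group; Lum, one of them, was at 0 throughout. Markers of myeloid and dendritic cells summed to 24.8 to 51.6, 27.6 to 67.4, 129 to 134 and 123 to 150 CPM in the same order of groups, and those of erythroid, mast and megakaryocytic cells to 508 to 553, 340 to 394, 1155 to 1534 and 886 to 1129 CPM. B-cell markers summed to at most 17.1 CPM, with Ms4a1 at 0 throughout, and NK and innate lymphoid markers to 102 to 137 CPM. Cell-cycle genes summed to 4322 to 4509, 4836 to 5017, 3735 to 4034 and 3602 to 4237 CPM in that order. In bulk RNA, fewer cells of a type and less RNA per cell cannot be told apart.

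The promoters of 6 members are shown so that a reader can see the motifs searched for: Eno1, Pgk1, Pgam1, Gapdh and Slc2a1 are called lower in late sgStat5 cells with the replicate block described below, and Ldha is the most abundant member. Each window runs from 250 bases before to 50 bases after the annotated transcript start, 300 bases in all, taken from RefSeq on GRCm38.p6 and written 5′ to 3′ on the gene's strand. Capitals mark ACGTG, the core of the hypoxia-response element, on either strand, and CACGTG, the E-box bound by MYC and related factors, which contains ACGTG. The windows are chr4:150236947-150237246 (plus strand) for Eno1, chrX:106186850-106187149 (plus) for Pgk1, chr19:41911621-41911920 (plus) for Pgam1, chr6:125165724-125166023 (minus) for Gapdh, chr4:119108495-119108794 (plus) for Slc2a1 and chr7:46845554-46845853 (plus) for Ldha.
Eno1: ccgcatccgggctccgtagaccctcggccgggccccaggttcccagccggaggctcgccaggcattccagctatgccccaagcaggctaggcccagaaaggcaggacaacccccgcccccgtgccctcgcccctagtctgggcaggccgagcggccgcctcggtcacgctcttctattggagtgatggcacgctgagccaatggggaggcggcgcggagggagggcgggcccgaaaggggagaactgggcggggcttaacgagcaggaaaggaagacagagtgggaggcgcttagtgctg
Pgk1: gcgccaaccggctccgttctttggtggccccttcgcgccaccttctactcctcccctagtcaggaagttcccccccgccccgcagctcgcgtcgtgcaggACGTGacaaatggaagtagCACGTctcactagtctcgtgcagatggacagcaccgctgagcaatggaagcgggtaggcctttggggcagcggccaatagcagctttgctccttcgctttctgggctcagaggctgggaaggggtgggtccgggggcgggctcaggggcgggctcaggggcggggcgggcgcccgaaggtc
Pgam1: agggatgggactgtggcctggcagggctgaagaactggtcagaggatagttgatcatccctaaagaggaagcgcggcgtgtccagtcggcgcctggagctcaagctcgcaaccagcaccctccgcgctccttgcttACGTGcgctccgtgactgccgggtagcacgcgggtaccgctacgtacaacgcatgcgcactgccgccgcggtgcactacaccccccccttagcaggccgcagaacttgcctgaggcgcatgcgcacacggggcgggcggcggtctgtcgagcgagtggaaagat
Gapdh: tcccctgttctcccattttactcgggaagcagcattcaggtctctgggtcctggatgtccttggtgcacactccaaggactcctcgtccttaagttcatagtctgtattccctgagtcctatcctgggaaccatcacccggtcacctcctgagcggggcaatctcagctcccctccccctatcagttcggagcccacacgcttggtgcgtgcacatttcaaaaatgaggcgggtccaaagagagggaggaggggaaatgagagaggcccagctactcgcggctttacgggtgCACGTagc
Slc2a1: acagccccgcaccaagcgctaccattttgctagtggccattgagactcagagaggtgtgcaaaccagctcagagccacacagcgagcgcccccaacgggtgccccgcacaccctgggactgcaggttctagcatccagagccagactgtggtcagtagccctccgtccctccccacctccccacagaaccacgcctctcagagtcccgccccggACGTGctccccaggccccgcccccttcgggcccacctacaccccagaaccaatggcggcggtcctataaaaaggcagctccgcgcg
Ldha: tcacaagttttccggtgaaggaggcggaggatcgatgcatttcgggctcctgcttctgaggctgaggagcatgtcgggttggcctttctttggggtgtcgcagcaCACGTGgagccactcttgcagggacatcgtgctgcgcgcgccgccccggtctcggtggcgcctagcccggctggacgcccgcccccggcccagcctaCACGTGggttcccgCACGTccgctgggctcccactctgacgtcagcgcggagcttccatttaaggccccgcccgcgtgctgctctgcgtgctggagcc

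Of the 30 members, 29 had a promoter in the RefSeq table, all but Slc2a3, and 26 of these windows start at the transcript used for counting. ACGTG occurred on either strand in 18 of 29 windows (62.1%), against 19.6% of all 32851 windows of the same length. CACGTG occurred in 4 of 29 (13.8%), namely those of Ldha, Slc16a1, Pdk2 and Hif1a, against 7.15% of all windows. TTCNNNGAA, the palindrome of STAT factors, occurred in 1 of 29 (3.45%), that of Pfkm, against 8.3% of all windows. The Ldha window held 2 E-boxes, starting at positions -145 and -48 from the transcript start, and Pgk1 held ACGTG at -150 and -131. The Eno1 window held none of the 3 motifs. These matches describe letters in a window and show no binding. Each member has 1 window, the one nearest the counted start, while the 32851 windows can hold several per gene. The windows were not matched for base composition, and its part in these shares was not tested.

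Levels between genes were compared per transcript length, as FPKM averaged over the 8 libraries. Ldha, the muscle-type lactate dehydrogenase subunit, was highest with 376 FPKM (range 273 to 452), followed by Pkm, pyruvate kinase, with 334 FPKM (273 to 387). Then came Pgk1 (phosphoglycerate kinase) with 219, Gapdh with 189, Aldoa (aldolase A) with 171, Pgam1 (phosphoglycerate mutase) with 141, Gpi1 (glucose-6-phosphate isomerase) with 130, Eno1 (enolase 1) with 116 and Tpi1 (triosephosphate isomerase) with 114 FPKM. These 9 genes are the main isoenzymes of the steps from glucose-6-phosphate to lactate other than phosphofructokinase, and their ranges over libraries overlap between neighbours in this order, except that Pgk1 (140 to 265) lay below Pkm in range. The steps before and beside them were lower. Hk1 averaged 54.9 FPKM, Pfkl, the liver-type phosphofructokinase, 24.4, the glucose transporters Slc2a1 (GLUT1) and Slc2a3 (GLUT3) 8.68 and 7.51, and the lactate transporter Slc16a1 (MCT1) 22.4 FPKM. The lowest members were Eno2, the neuronal enolase, with 0.130 FPKM and listed at 0 in early control replicate 1, Slc16a3 (MCT4) with 0.741 and Pdk2 with 0.866 FPKM. For 7 of the 30 the FPKM table uses another representative transcript than the count table. The place of Eno1 in the order of levels is uncertain, since the division of reads with its near copy Eno1b, described below, is not known.

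**Figure D1:**
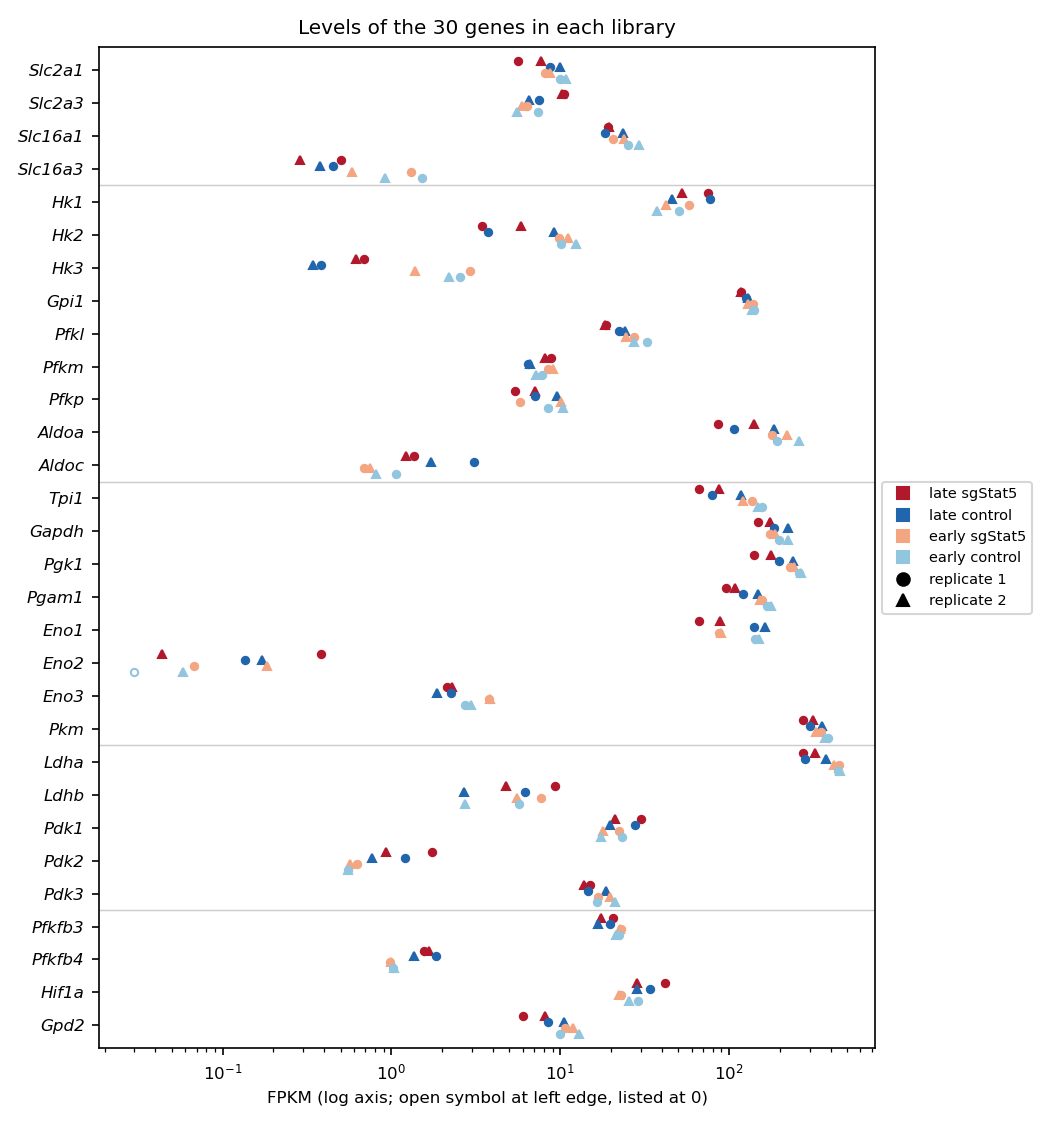
FPKM (log axis) of each of the 30 genes in each of the 8 libraries, with colours for groups and symbols for replicates, ordered by role (transport, hexose phase, triose phase, pyruvate fate, regulators and shuttle). The 9 main isoenzymes from Gpi1 to Ldha lie to the right and Eno2, Slc16a3 and Pdk2 to the left; the open symbol is the library in which Eno2 is listed at 0.

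Taken as a share of all counts, the 30 genes held 0.479 and 0.531% in late sgStat5 libraries and 0.553 and 0.639% in late control libraries, a mean of 0.505 ± 0.0368% against 0.596 ± 0.0608% (SD, n = 2 each). In the early gate the shares were 0.631 and 0.636% in sgStat5 and 0.696 and 0.693% in control libraries, a mean of 0.633 ± 0.00358% against 0.694 ± 0.00199%. The sgStat5 libraries were lower than both control libraries of their gate in each gate. The late libraries of a guide arm were below both early libraries of the same arm.

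Replicate numbers carry their own difference. 7 members (Slc2a3, Hk1, Hk3, Ldhb, Slc16a3, Pdk1 and Pdk2) were higher in replicate 1 of all 4 groups, and 9 members (Slc2a1, Hk2, Pfkp, Aldoa, Gapdh, Pgam1, Eno1, Slc16a1 and Gpd2) were higher in replicate 2 of all 4. Hk1 exceeded its replicate 2 value by 0.41 to 0.75 on the log2 scale in replicate 1, and Aldoa lay below it, with differences of -0.78 to -0.34. Deviations of same-numbered libraries correlated across groups, so each comparison was fitted both without and with the replicate number as a block, and both are given. No label tells if both libraries of a group come from different cultures or mice, so p-values measure the spread between these samples, which may be technical. A member is called where its adjusted p is below 0.05 over all 13775 genes.

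After commitment, enolase was the step that differed most between sgStat5 and control cells. Eno1, which converts 2-phosphoglycerate to phosphoenolpyruvate, had 156 and 210 CPM in late sgStat5 libraries against 347 and 402 CPM in late control libraries. Both sgStat5 libraries lay far below both control libraries, and Eno1 fell to 0.489 times the control level, with a log2 fold change of -1.03 (SE 0.15, adjusted p = 0.0217 by edgeR's quasi-likelihood test with Benjamini-Hochberg adjustment). With the block it was -1.04 (SE 0.09, adjusted p = 0.000265). Without the block, the call was lost when any of 7 libraries was left out (adjusted p 0.05005 to 0.112), and it held without late sgStat5 replicate 2 (adjusted p = 0.0217); fitted on the late libraries alone it was lost too (adjusted p = 0.160). With the block it held in all 8 such fits, at -1.20 to -0.90. Eno1 lies at chr4:150237197-150248873 (mm10, plus strand). Its near copy Eno1b, annotated on another chromosome and 99.482% identical over 1736 aligned bases, has a row of its own that the file lists with 2 loci and with coordinates inside Eno1, so that row includes Eno1 reads. The Eno1b row held 1.71 to 1.73 times the Eno1 count in each of the 8 libraries, and its log2 fold change was -1.04 (adjusted p = 0.0217).

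Eno1 was the 1 member of 30 called without the block in the late gate, where 0.951% of tested genes were called lower, 0.755% higher and 1.71% in either direction. With the block, 6 members were lower and 1 was higher, against 4.49% of tested genes called lower, 3.72% higher and 8.22% in either direction. The 6 that fell were Eno1, Pgk1, Pgam1, Gapdh, Slc2a1 and Gpd2, and Slc2a3 rose; 4 of these 7 are consecutive enzymes of the triose phase. Gapdh, which oxidises glyceraldehyde-3-phosphate and makes NADH, had 282 and 334 CPM in late sgStat5 against 366 and 442 CPM in late control libraries. Pgk1, the first ATP-yielding step, had 339 and 437 CPM in late sgStat5 against 503 and 607 CPM in late control. Pgam1, which moves the phosphate to the second carbon, had 234 and 268 CPM in late sgStat5 against 307 and 382 CPM in late control. In none of the 3 did the groups overlap, and the log2 fold changes with the block were -0.39 (SE 0.07, adjusted p = 0.00866) for Gapdh, -0.52 (SE 0.09, adjusted p = 0.00826) for Pgk1 and -0.45 (SE 0.09, adjusted p = 0.0119) for Pgam1. Without the block the adjusted p-values were 0.279, 0.187 and 0.161. Eno1, Slc2a1, Gpd2, Gapdh and Pgam1, like the summed OP9-stroma markers, were higher in replicate 2 of every group, and the part of stromal RNA in their levels was not tested. Transcripts of other genes at least 95% identical exist for Gapdh, Pgk1 and Pgam1, with 78 such genes for Gapdh, so the division of reads among copies is uncertain.

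The glucose transporters moved in opposite directions in the late gate, in calls made only with the block. Both calls lay close to the threshold. In the blocked fits that left a library out, the Slc2a1 call was lost more often than it held. The Slc2a3 call was lost as often as it held. Slc2a1, the widely expressed transporter of proliferating cells, had 19.1 and 26.5 CPM in late sgStat5 libraries against 31.05 and 35.8 CPM in late control libraries. Its groups did not overlap, and it fell by 0.56 on the log2 scale with the block (SE 0.13, adjusted p = 0.0348; adjusted p = 0.262 without it). Slc2a3, a high-affinity transporter, had 55.9 and 54.8 CPM in late sgStat5 against 41.3 and 36.5 CPM in late control libraries. It was higher in both sgStat5 libraries and rose by 0.52 with the block (SE 0.13, adjusted p = 0.0445; adjusted p = 0.284 without it). Of the lactate transporters, Slc16a1 had 113 and 116 CPM in late sgStat5 against 114 and 146 CPM in late control, with overlapping groups and a log2 fold change of -0.19, and Slc16a3 had 0.932 to 1.59 CPM in all 4 late libraries; neither was called. Gpd2, the mitochondrial glycerol-3-phosphate dehydrogenase that passes electrons of cytosolic NADH to the respiratory chain, had 45.03 and 61.6 CPM in late sgStat5 against 66.7 and 83.2 CPM in late control. It fell by 0.50 with the block (SE 0.09, adjusted p = 0.0102; adjusted p = 0.371 without it).

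**Figure D2:**
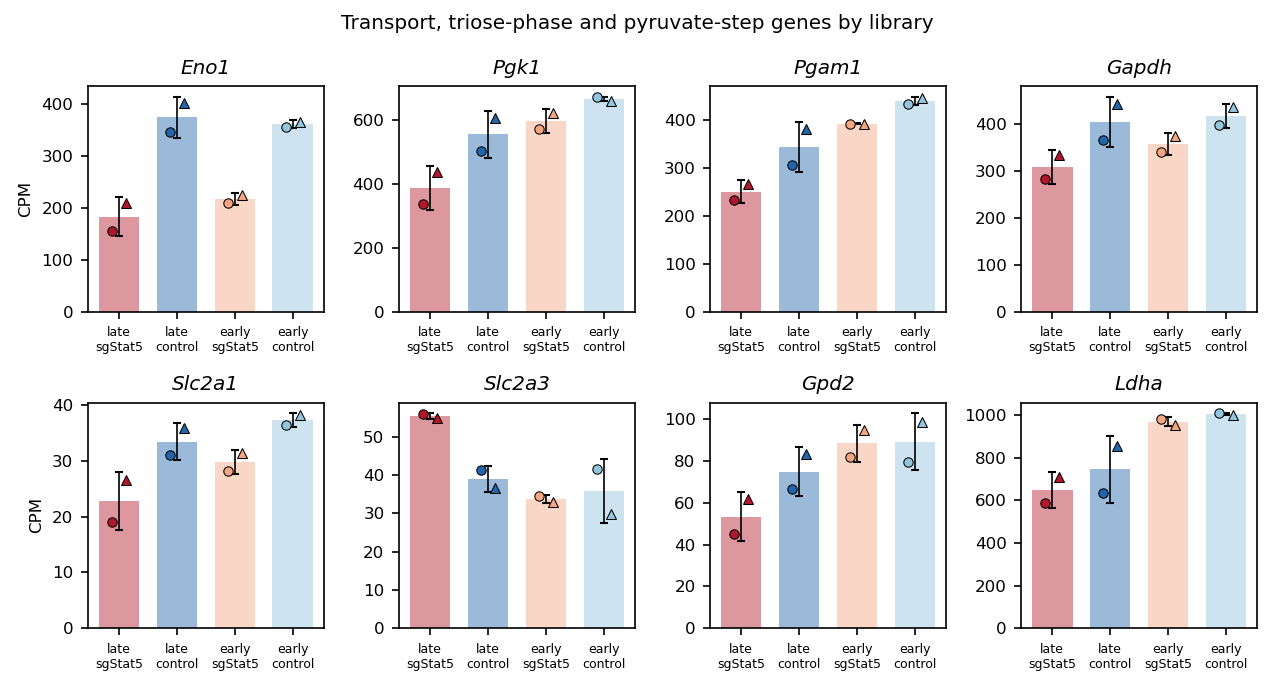
CPM (linear axes from 0) of the 7 genes called with the block in the late gate, and of Ldha, in each library; bars are group means, error bars SD (n = 2), circles replicate 1 and triangles replicate 2. In Eno1 both sgStat5 groups lie below both control groups, in Pgk1, Pgam1, Gapdh, Slc2a1 and Gpd2 the late sgStat5 group is lowest, and in Slc2a3 it is highest.

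With the block, how many members were called in the late gate depended on single libraries. The count was 1 without late sgStat5 replicate 1 and 1 without late control replicate 2, 4 without late sgStat5 replicate 2, and 6 to 9 when any of the other 5 was left out. Leaving a library out of a group of 2 assumes that the remaining one varies like the other groups. The direction of each of the 7 genes was the same in all 8 such fits: Pgk1 ranged from -0.65 to -0.41, Gapdh from -0.45 to -0.33, Pgam1 from -0.58 to -0.33, Slc2a1 from -0.73 to -0.40, Gpd2 from -0.59 to -0.42 and Slc2a3 from 0.40 to 0.62. Over the 30 members the median log2 fold change in the late gate was -0.19, beside -0.02 over all tested genes, and 20 of 30 were negative, beside 52.3% of tested genes. In 12 members both sgStat5 libraries were below both control libraries and in 4 both were above, beside 20.8 and 18.1% of tested genes.

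None of the 9 hexose-phase genes was called in the late gate with or without the block. Aldoa, which splits fructose-1,6-bisphosphate, had 172 and 284 CPM in late sgStat5 against 226 and 389 CPM in late control libraries. Each sgStat5 library lay below the control library of its own number, while the groups overlapped, and the log2 fold change with the block was -0.43 (adjusted p = 0.0510). With the counts of its retrocopy Aldoart1 added, an alternative chosen after seeing the data, it was -0.44 (adjusted p = 0.0462). Pfkl had 93.0 and 92.8 CPM in late sgStat5 against 116 and 126 CPM in late control (-0.38 with the block, adjusted p = 0.0556). Aldoc, the brain-type aldolase, had 4.86 and 4.41 CPM in late sgStat5 against 11.5 and 6.45 CPM in late control, a log2 fold change of -0.95 that was not called (adjusted p = 0.335; 0.113 with the block). Ldha (-0.20) and Pkm (-0.23), the most abundant members, and Hif1a (0.10), the oxygen-regulated activator of glycolytic genes, were not called either. The late sgStat5 libraries had a summed cell-cycle level of 4322 to 4509 CPM against 4836 to 5017 CPM in late control, and a stromal level that overlapped between these groups. Markers of erythroid, mast and megakaryocytic cells summed to 508 to 553 CPM in late sgStat5 against 340 to 394 CPM in late control, and to 1155 to 1534 CPM in early sgStat5 against 886 to 1129 CPM in early control. The 10 T-progenitor markers summed to 4965 to 6005 CPM in late sgStat5 against 5789 to 7315 CPM in late control, and to 3896 to 3999 CPM in early sgStat5 against 4758 to 5390 CPM in early control. The part of these marker differences in the guide effects was not tested.

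Before commitment, Eno1 was the 1 member of 30 called with the block, and none was called without it. It had 209 and 225 CPM in early sgStat5 libraries against 356 and 366 CPM in early control libraries. Both sgStat5 libraries were lower, and Eno1 fell with the block by 0.74 on the log2 scale (SE 0.09, adjusted p = 0.00432), while without it the same fold change had an adjusted p of 0.171. In this comparison 0.145% of tested genes were called lower, 0.123% higher and 0.269% in either direction without the block, and 1.33% lower, 1.0% higher and 2.33% in either direction with it. The blocked call was lost without early control replicate 1 (-0.63, adjusted p = 0.0724). The Eno1b row had a log2 fold change of -0.74 there (adjusted p = 0.0038 with the block and 0.171 without). Pgk1 had 571 and 622 CPM in early sgStat5 against 670 and 660 CPM in early control, and Gapdh had 340 and 374 CPM in early sgStat5 against 397 and 435 CPM in early control. Neither pair of groups overlapped and neither gene was called, with log2 fold changes of -0.16 and -0.22. The transporters were not called either: Slc2a1 had 28.3 and 31.4 CPM in early sgStat5 against 36.5 and 38.2 CPM in early control, and Slc2a3 had 34.5 and 33.0 CPM in early sgStat5 against 41.7 and 29.9 CPM in early control. Gpd2 had 82.0 and 94.8 CPM in early sgStat5 against 79.6 and 98.8 CPM in early control, with overlapping groups. Slc16a1 had 123 and 150 CPM in early sgStat5 against 158 and 177 CPM in early control, and Aldoc had 2.52 and 2.81 CPM in early sgStat5 against 4.05 and 2.99 CPM in early control; neither was called. Over the 30 members the median was -0.13, beside -0.00 over all tested genes, and 23 of 30 were negative, beside 50.0% of tested genes. In 13 members both sgStat5 libraries were below both control libraries and in 4 both were above, beside 19.4 and 18.7%.

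**Figure D3:**
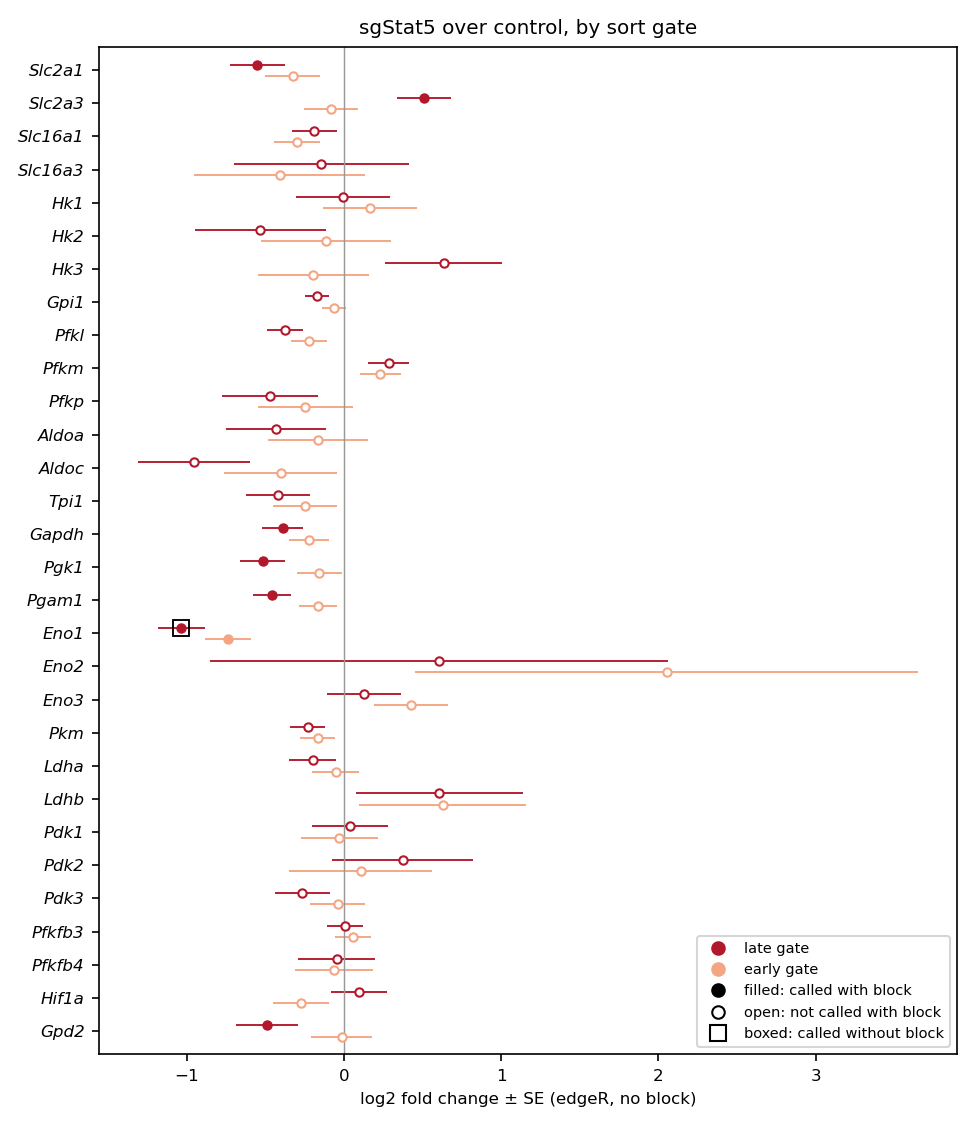
Log2 fold change of sgStat5 over control for the 30 genes in the late and the early gate, with SE, from edgeR without the block; filled symbols are genes called with the block and the box marks the gene called without it. Eno1 is at -1.03 and -0.74, the other late calls lie between -0.55 and -0.39 except Slc2a3 at 0.51, and the widest bars belong to Eno2.

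Whether the effect of the Stat5 guides differed between the gates was tested as the late effect minus the early effect. No gene in the table was called, by edgeR without the block (0.00% of tested genes) or with it (0.00%), while 302 genes had an unadjusted p below 0.05 and DESeq2 called 2. None of the 30 members was called in any of these fits. The difference was -0.30 (SE 0.21) for Eno1, -0.36 (SE 0.20) for Pgk1, -0.48 (SE 0.28) for Gpd2 and 0.59 (SE 0.24) for Slc2a3. Without the block, Slc2a3 was the 1 member with an unadjusted p below 0.05 (0.0432, adjusted p = 0.9998). With it there were 5, Gpd2 (0.00394), Slc2a3 (0.0115), Pgk1 (0.0205), Pgam1 (0.0391) and Eno1 (0.0492), with adjusted p-values from 0.526 to 0.836. The median over members was -0.16, beside -0.02 over all tested genes, and 21 of 30 were negative, beside 53.3%. A larger late than early effect on these genes is therefore not shown.

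Isoenzymes of a step were compared as shares of the summed FPKM of that step, as descriptions with no test. Slc2a1 made up 38.6 ± 5.76% of the summed FPKM of both glucose transporters in late sgStat5 libraries and 57.0 ± 4.602% in late control libraries (SD, n = 2 each). In the early gate it made up 57.6 ± 2.55% in sgStat5 and 61.9 ± 6.28% in control libraries. The late sgStat5 libraries, with 34.5 and 42.7%, were the only ones of the 8 in which Slc2a3 had the larger share. Among phosphofructokinases, which catalyse the committed step, the muscle-type Pfkm held 25.4 ± 2.02% in late sgStat5 and 17.2 ± 0.960% in late control, and 20.7 ± 0.200% in early sgStat5 and 16.0 ± 0.104% in early control libraries. Its lowest sgStat5 share, 20.5%, exceeded its highest control share, 17.9%, although Pfkm itself was not called (0.29 in the late and 0.23 in the early gate). Hk1 held 71.9 to 94.98% of hexokinase, Aldoa 97.2 to 99.7% of aldolase, Eno1 95.7 to 98.8% of enolase and Ldha 96.7 to 99.4% of lactate dehydrogenase. The enolase sum leaves out the Eno1b row.

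**Figure D4:**
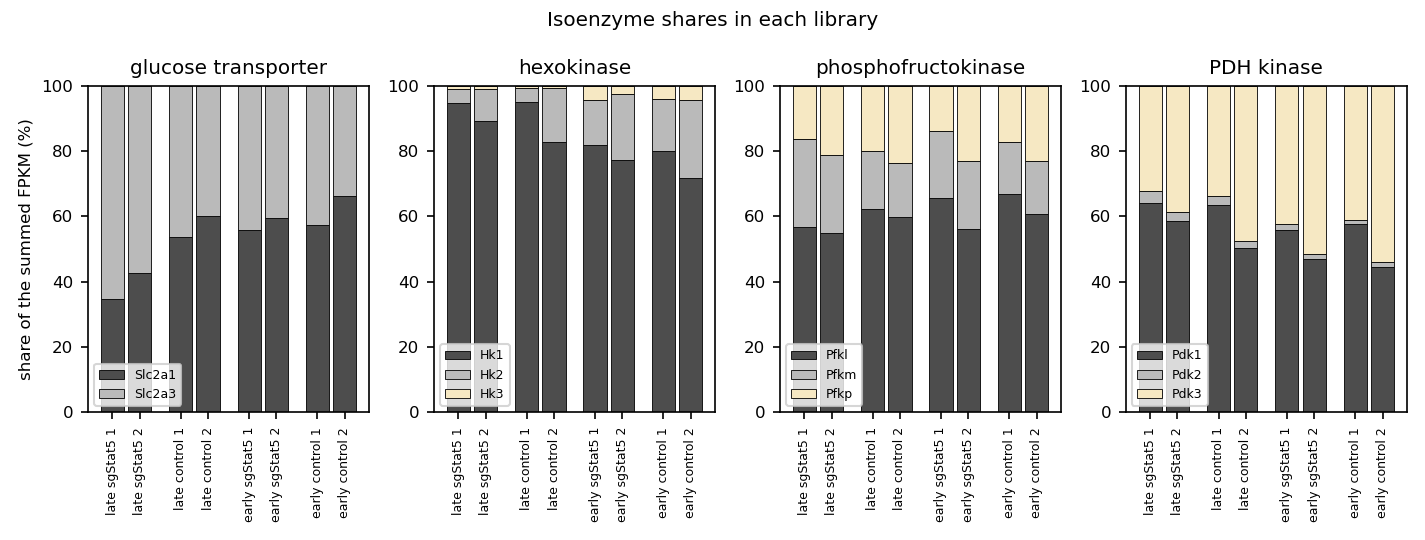
Stacked shares (%) of the summed FPKM of each library taken by the glucose transporters, hexokinases, phosphofructokinases and pyruvate dehydrogenase kinases. Slc2a1 lies below 50% in both late sgStat5 libraries and above it in the other 6, and Hk1 is the largest hexokinase in all 8.

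The gates were then compared within each guide arm. In control cells, late against early, no member was called without the block, where 0.0145% of tested genes were called, all of them higher. With the block 7 members were lower and 2 higher, beside 4.30 and 6.64% of tested genes (10.9% in either direction). The 7 that fell were Hk2, Hk3, Aldoa, Tpi1, Pgam1, Ldha and Slc16a1, and Hk1 and Aldoc rose. Hexokinases, which phosphorylate glucose, thus moved apart. Hk2, the inducible form, had 28.5 and 70.8 CPM in late control against 78.8 and 94.1 CPM in early control libraries, lower without overlap (-0.90 with the block, SE 0.23, adjusted p = 0.0382). Hk1, the constitutive form, had 448 and 266 CPM in late control against 299 and 213 CPM in early control; it was higher within each replicate number although the groups overlapped (0.46, SE 0.09, adjusted p = 0.0150). Hk3, best known from myeloid cells, had 1.799 and 1.65 CPM in late control against 11.3 and 9.58 CPM in early control (-2.59, SE 0.32, adjusted p = 0.00296). Markers of myeloid and dendritic cells moved the same way, with 27.6 to 67.4 CPM in late control against 123 to 150 CPM in early control, and their part in the Hk3 difference was not tested.

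Below the hexokinases, Aldoa had 226 and 389 CPM in late control against 410 and 534 CPM in early control libraries, and its counterpart Aldoc 11.5 and 6.45 CPM in late control against 4.05 and 2.99 CPM in early control. Aldoa fell (-0.66, SE 0.11, adjusted p = 0.0100) and Aldoc rose (1.33, SE 0.31, adjusted p = 0.0285), both with the block, and in neither did the groups overlap. Tpi1, which interconverts both triose phosphates, had 177 and 263 CPM in late control against 356 and 322 CPM in early control (-0.65, SE 0.16, adjusted p = 0.0382). Pgam1 had 307 and 382 CPM in late control against 434 and 447 CPM in early control (-0.36, SE 0.08, adjusted p = 0.0304). At the end of the pathway, Ldha had 634 and 856 CPM in late control against 1007 and 1002 CPM in early control (-0.44, SE 0.11, adjusted p = 0.0332). Slc16a1, which exports lactate, had 114 and 146 CPM in late control against 158 and 177 CPM in early control (-0.37, SE 0.09, adjusted p = 0.0324). For Tpi1, Pgam1, Ldha and Slc16a1 every late library was below every early library, and the gap was wider in replicate 1. Eno1, by contrast, had 347 and 402 CPM in late control and 356 and 366 CPM in early control, overlapping, with a log2 fold change of 0.05 that was not called. Without late control replicate 1, Hk2 was at -0.48, Tpi1 at -0.39 and Ldha at -0.26, none of them called; without early control replicate 1 Tpi1 was at -0.43, and without late control replicate 2 Hk2 was at -1.41. The 9 calls became 1 when early control replicate 1 or late control replicate 1 was left out, and were 8 to 10 without any of the other 6 libraries. The median over members was -0.18, beside 0.03 over all tested genes; 20 of 30 were negative, beside 46.0%, and 16 were lower and 4 higher without overlap, beside 24.2 and 24.6%.

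In sgStat5 cells, late against early, the same comparison gave more calls throughout the table, so the counts are read beside that background. No member was called without the block, where 0.312% of tested genes were called lower and 0.661% higher (0.973% in either direction). With the block 11 members fell and 4 rose, beside 11.5 and 11.3% of tested genes (22.8% in either direction). The 11 were Hk2, Hk3, Gpi1, Pfkl, Aldoa, Tpi1, Pgk1, Pgam1, Ldha, Pfkfb3 and Gpd2, and the 4 were Slc2a3, Hk1, Pdk1 and Hif1a. Of the 9 steps from Gpi1 to Ldha, Aldoa fell most: it had 172 and 284 CPM in late sgStat5 against 372 and 471 CPM in early sgStat5 libraries (-0.92, SE 0.11, adjusted p = 0.00111). Tpi1 had 141 and 188 CPM in late sgStat5 against 298 and 273 CPM in early sgStat5 (-0.81, SE 0.16, adjusted p = 0.00869), again without overlap. Pgk1, with 339 and 437 CPM in late sgStat5 against 571 and 622 CPM in early sgStat5, fell by 0.63 (SE 0.09, adjusted p = 0.00222). Pgam1, with 234 and 268 CPM in late sgStat5 against 392 and 393 CPM in early sgStat5, fell by 0.65 (SE 0.09, adjusted p = 0.00146). Ldha had 589 and 709 CPM in late sgStat5 against 982 and 955 CPM in early sgStat5 (-0.59, SE 0.11, adjusted p = 0.00587). In all 5 genes every late library was below every early library.

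Upstream in the same arm, Hk2 had 25.4 and 43.2 CPM in late sgStat5 against 73.9 and 86.2 CPM in early sgStat5 (-1.27, SE 0.23, adjusted p = 0.00562). Hk3 had 2.70 and 2.65 CPM in late sgStat5 against 12.3 and 5.98 CPM in early sgStat5 (-1.71, SE 0.31, adjusted p = 0.00562), beside myeloid and dendritic markers at 24.8 to 51.6 CPM against 129 to 134 CPM. Hk1 rose, with 416 and 295 CPM in late sgStat5 against 328 and 247 CPM in early sgStat5 (0.30, SE 0.09, adjusted p = 0.0393), although the groups overlapped. Hk2 and Hk3 were thus lower, and Hk1 higher, in the late gate of both arms. Phosphofructokinase and its neighbours followed the direction of Hk2. Pfkl had 93.0 and 92.8 CPM in late sgStat5 against 138 and 129 CPM in early sgStat5 (-0.52, SE 0.10, adjusted p = 0.00762), beside 172 and 139 CPM in early control. A smaller fall was seen in Gpi1, with 454 and 458 CPM in late sgStat5 against 543 and 525 CPM in early sgStat5 (-0.23, SE 0.06, adjusted p = 0.0318), beside 507 and 521 CPM in late control and 576 and 540 CPM in early control. Pfkfb3, which makes the activator of phosphofructokinase, had 127 and 110 CPM in late sgStat5 against 146 and 149 CPM in early sgStat5 (-0.32, SE 0.09, adjusted p = 0.0269), beside 127 and 109 CPM in late control and 148 and 136 CPM in early control. Gpd2, with 45.03 and 61.6 CPM in late sgStat5 against 82.0 and 94.8 CPM in early sgStat5, fell by 0.74 (SE 0.09, adjusted p = 0.00111). Slc2a3, with 55.9 and 54.8 CPM in late sgStat5 against 34.5 and 33.0 CPM in early sgStat5, rose by 0.72 (SE 0.13, adjusted p = 0.00588). Slc2a3, Gpd2, Pgk1 and Pgam1 are called both for the guides after commitment and for the gate in sgStat5 cells, comparisons that share the late sgStat5 libraries. Hif1a had 257 and 178 CPM in late sgStat5 against 145 and 145 CPM in early sgStat5 (0.56, SE 0.11, adjusted p = 0.00837), beside 221 and 187 CPM in late control and 187 and 163 CPM in early control. Pdk1, which restrains pyruvate dehydrogenase, had 207 and 147 CPM in late sgStat5 against 157 and 131 CPM in early sgStat5 (0.28, SE 0.08, adjusted p = 0.0407), with overlapping groups, beside 201 and 143 CPM in late control and 171 and 123 CPM in early control. The other PDH kinases were not called: Pdk3 was lower in the late sgStat5 libraries (-0.38 with the block) and Pdk2 higher (1.05). Without early sgStat5 replicate 1, Pdk1 was at 0.17 (adjusted p = 0.358), and without late sgStat5 replicate 1 Hif1a was at 0.37 (adjusted p = 0.0912). The 15 calls became 6 without late sgStat5 replicate 1 and 8 without early sgStat5 replicate 1, and were 11 to 15 without any of the other 6. The median over members was -0.29, beside 0.03 over all tested genes, and 21 of 30 were negative, beside 47.6%; 19 members were lower and 5 higher without overlap, beside 28.1% for each direction. The 4 gate and guide comparisons share groups and are not independent of each other, and whether a gate difference differs between the arms is the same test as the difference of effects above, in which no member was called.

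**Figure D5:**
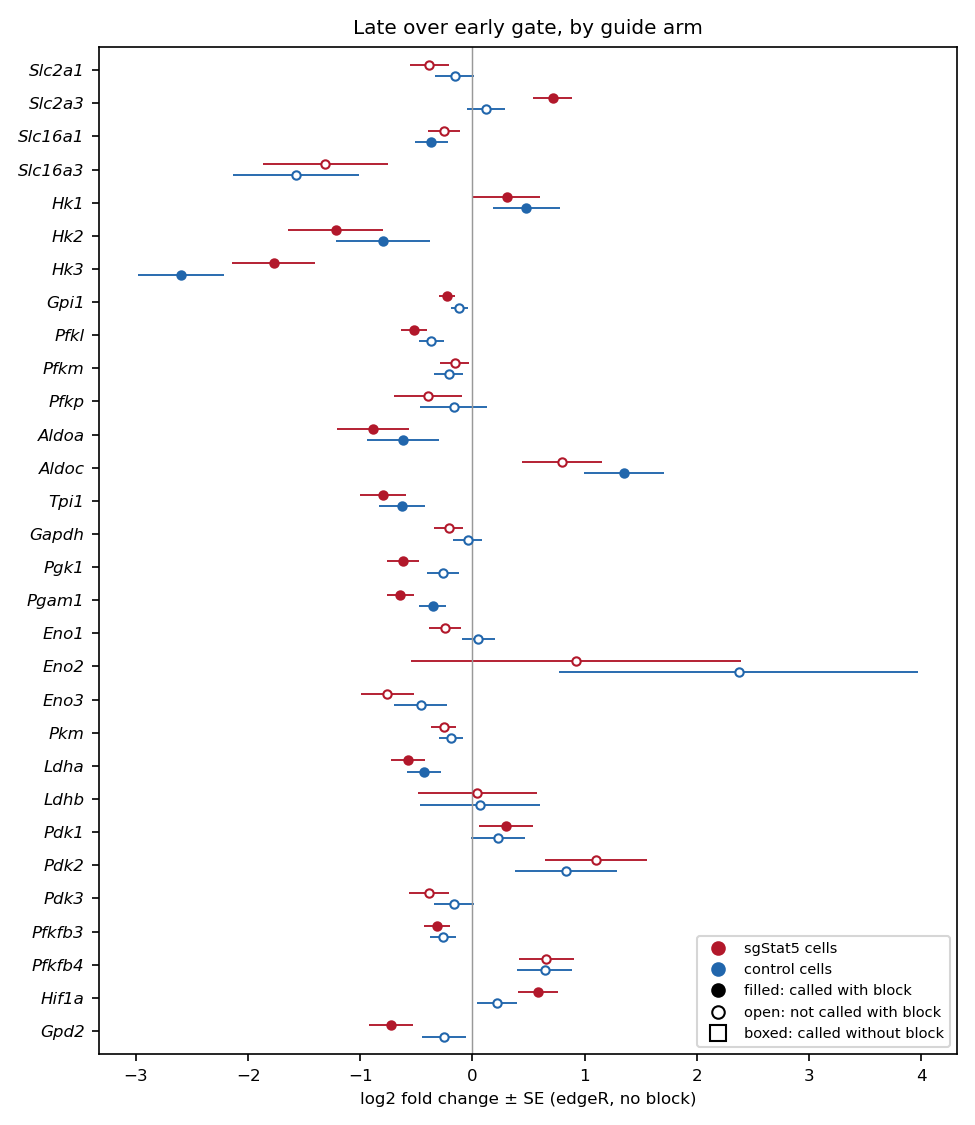
Log2 fold change of the late over the early gate for the 30 genes in sgStat5 and in control cells, with SE, from edgeR without the block; filled symbols are genes called with the block, and no gene was called without it. Hk3, Hk2, Aldoa and Tpi1 lie left of 0 in both arms, Hk1 and Aldoc right of it, and Slc2a3 is filled at 0.71 in sgStat5 cells and open at 0.12 in control cells.

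The other 10 members, Pfkm, Pfkp, Eno2, Eno3, Pkm, Ldhb, Slc16a3, Pfkfb4, Pdk2 and Pdk3, were called in no comparison by either fit. Pkm, whose level was high, had 883 and 1022 CPM in late sgStat5, 1026 and 1210 in late control, 1157 and 1118 in early sgStat5 and 1330 and 1224 CPM in early control libraries. Its sgStat5 libraries were below the control libraries of the same gate without overlap. Pfkfb4 had 6.98 and 7.53 CPM in late sgStat5, 8.58 and 6.42 in late control, 4.49 and 4.69 in early sgStat5 and 4.84 and 4.76 CPM in early control; the late libraries were higher in both arms (0.66 in sgStat5 and 0.64 in control cells). Slc16a3, the lactate exporter of highly glycolytic cells, had 0.932 to 1.59 CPM in the 4 late libraries and 1.96 to 5.19 CPM in the 4 early libraries. Ldhb differed mainly by replicate number, with 16.1 and 8.39 CPM in late sgStat5, 11.2 and 4.90 in late control, 13.6 and 10.2 in early sgStat5 and 10.5 and 4.85 CPM in early control. Eno2 had at most 1.502 CPM.

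Pathways that branch from glycolysis or control it were read from lists of other genes. In the branch to serine and one-carbon units, which leaves at 3-phosphoglycerate, 6 of 8 genes fell in late sgStat5 cells with the block, beside 4.49% of all tested genes called lower, and none was called without it. Phgdh, the entry enzyme, had 419 and 391 CPM in late sgStat5 against 553 and 544 CPM in late control libraries (-0.44, adjusted p = 0.00271 with the block and 0.0533 without), and also fell with the block in the early gate (-0.34, adjusted p = 0.0223). The others were Psat1 (-0.45), Shmt2 (-0.45), Mthfd1 (-0.40), Mthfd2 (-0.45) and Mthfd1l (-0.38). Psat1 was at -0.30 without late control replicate 2 and Shmt2 at -0.30 without late sgStat5 replicate 1, neither called. The median of the 8 was -0.42, beside -0.02 over all tested genes. In the glycogen and hexosamine branch, 1 of 12 genes was called with the block in each gate. Over all tested genes, 4.49% were called lower with it in the late and 1.33% in the early gate. The gene was Pgm2, a phosphoglucomutase, called in the late gate also without the block, where 0.951% of tested genes were called lower. It had 36.4 and 37.0 CPM in late sgStat5 against 74.7 and 95.1 CPM in late control (-1.21 without the block, SE 0.18, adjusted p = 0.0266). In the early gate it had 44.2 and 58.9 CPM in sgStat5 against 90.2 and 78.3 CPM in control libraries (-0.72 with the block, adjusted p = 0.0396; -0.48 and not called without early control replicate 1). None of 9 pentose phosphate genes, 12 genes that carry pyruvate into mitochondria or 17 tested genes of other glycolytic isoenzymes and transporters was called for the guides in either gate.

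Between gates, no gene of these 5 lists was called without the block. With it, sgStat5 cells had 11.5% of all tested genes called lower and 11.3% higher, and control cells 4.30% lower and 6.64% higher; counts of 1 of 12 or 1 to 3 of 17 below lie near those shares. Pentose phosphate genes fell, 3 of 9 in control cells (Pgd, Tkt and Taldo1) and 6 of 9 in sgStat5 cells (those with G6pdx, Rpia and Prps1), while Prps2 rose in sgStat5 cells. Tkt, transketolase, had 424 and 549 CPM in late sgStat5, 534 and 673 in late control, 692 and 724 in early sgStat5 and 775 and 828 CPM in early control libraries. Of 12 mitochondrial pyruvate genes, 1 fell in control cells (Me2) and 4 in sgStat5 cells (Me2, Pdha1, Dlat and Dld). Of the 17 tested among other glycolytic isoenzymes and transporters, 1 fell in control cells (Slc2a6) and 3 in sgStat5 cells (Slc2a6, Slc16a7 and Bsg, the chaperone of lactate transporters). The serine and one-carbon branch had 3 of 8 genes lower in control cells (Psat1, Mthfd1 and Mthfd1l) and 5 of 8 in sgStat5 cells (those with Shmt2 and Mthfd2), and Phgdh was not called between gates (-0.03 in sgStat5 and 0.06 in control cells). In the glycogen and hexosamine branch Pygl, the liver glycogen phosphorylase, and Gnpnat1 fell in both arms, Pgm1 and Pgm2 fell in sgStat5 cells, and Fbp1, an enzyme of gluconeogenesis, rose there. Some sizes depended on single libraries. Without late control replicate 1, control cells had Pygl at -0.86 instead of -1.32, Pgd at -0.25 instead of -0.44 and Psat1 at -0.27 instead of -0.41. Psat1 was at -0.26 without early control replicate 1. In sgStat5 cells, Pgm2 was at -0.32 instead of -0.48 without early sgStat5 replicate 2. Fbp1 was at 0.49 instead of 1.10 without late sgStat5 replicate 2. These gate calls, all with the block, stand beside markers of erythroid, mast and megakaryocytic cells that were lower, and T-progenitor markers whose ranges were higher, in the late gate, at the levels given above; their part was not tested.

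Hypoxia-response genes outside glycolysis, many of which respond to HIF in other cells, fell in part. With the block, where 4.49% of all tested genes were called lower in the late and 1.33% in the early gate, 5 of 20 tested genes fell in late sgStat5 cells (Bnip3, Vegfa, Ero1l, Ndrg1 and Bhlhe40) and 4 of 20 in early sgStat5 cells (Vegfa, Ero1l, Ndrg1 and Bhlhe40). Bhlhe40, a repressor that is also known as a cytokine-responsive gene in T cells, had 7.11 and 9.75 CPM in late sgStat5 against 25.04 and 28.6 CPM in late control libraries, and 7.95 and 6.80 CPM in early sgStat5 against 26.6 and 23.7 CPM in early control. Bhlhe40 was the 1 gene of the list called without the block, in both gates (-1.67, adjusted p = 0.0121 late, and -1.77, adjusted p = 0.0280 early). Of all tested genes, 0.951% were called lower without the block in the late and 0.145% in the early gate. The median of the 20 was -0.19 in the late and -0.19 in the early gate. Between gates the list moved in both directions, and no gene of it was called without the block. With it, 5 of 20 were higher and 5 lower in sgStat5 cells, beside 11.3 and 11.5% of all tested genes. In control cells 2 were higher and 2 lower, beside 6.64 and 4.30%, so the control counts lie not far from those shares. Ndrg1 and Vegfa rose and Ak4 and Mif fell in both arms. Vegfa in control cells was at 1.16 with the block and at 0.72 without late control replicate 1. None of 9 HIF regulators, of which Egln1 and Egln3 are also in the hypoxia list, was called for the guides. Arnt, the partner of HIF1A, had log2 fold changes of 0.03 in the late and 0.03 in the early gate, Vhl 0.24 and -0.37, Egln1 -0.24 and -0.23, and Egln3 -0.24 and -0.33. Epas1, which encodes HIF-2 alpha, was higher in the late gate with the block in both arms (0.77 in sgStat5 and 0.79 in control cells). It was the 1 of 9 HIF regulators called there in each arm. That count lies near the shares of all tested genes called higher, 11.3% in sgStat5 and 6.64% in control cells.

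Of 10 tested genes of MYC, MondoA and glucose sensing, 1 was called for the guides, higher in the late gate. Over all tested genes, 0.755% were called higher there without the block and 3.72% with it. Mxd1, an antagonist of MYC at E-boxes, had 36.6 and 30.7 CPM in late sgStat5 against 15.7 and 12.8 CPM in late control libraries (1.24, adjusted p = 0.0338 without the block). Myc had 177 and 197 CPM in late sgStat5 against 139 and 196 CPM in late control, and 217 and 227 CPM in early sgStat5 against 209 and 225 CPM in early control, and was not called for the guides (0.16 and 0.03). Between gates no gene of the list was called without the block. With it, 4 of 10 were higher and 1 lower in sgStat5 cells, and 1 higher and 2 lower in control cells. Over all tested genes the shares were 11.3% higher and 11.5% lower in sgStat5 cells, and 6.64% higher and 4.30% lower in control cells. Counts of 1 of 10 lie near those shares. The antagonists Mxd1 (0.91), Mxd3 (0.65) and Mxd4 (0.83) rose in sgStat5 cells, Mycn fell in both arms (-2.17 in sgStat5 and -1.62 in control cells), and Myc fell in control cells (-0.39, adjusted p = 0.0478). Without late sgStat5 replicate 1, Mxd3 was at 0.35 and Mxd4 at 0.48, neither called. Myc was at -0.20 (adjusted p = 0.4997) without late control replicate 1 and at -0.60 without late control replicate 2. Txnip, which limits glucose uptake and is induced by glucose, had 128 and 80.3 CPM in late sgStat5, 124 and 71.9 in late control, 57.5 and 48.0 in early sgStat5 and 54.9 and 53.6 CPM in early control. Txnip rose between gates with the block (0.95, adjusted p = 0.00479 in sgStat5 cells; 0.80, adjusted p = 0.0194 in control cells, where it was 0.53 and not called without early control replicate 1) and was not called for the guides. In the list of AKT, mTORC1 and AMPK signalling, 3 of 16 tested genes fell in late sgStat5 cells with the block, beside 4.49% of all tested genes, and none was called without it: Pik3cd, a catalytic subunit of PI3 kinase (-0.52, adjusted p = 0.00601), and Slc7a5 and Slc3a2, which together form a transporter of large amino acids (-0.60 and -0.41, adjusted p = 0.0124 and 0.0398). Slc7a5 was at -0.37 (adjusted p = 0.105) without late control replicate 2.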

How the data were processed

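RNA from 8 libraries, in 4 groups of 2, was quantified by the authors in tables of counts and FPKM. Tools listed, per the submitters' processing notes and without their roles, are RSEM 1.2.25, STAR 2.4.0 and bcl2fastq 1.8.4, with GRCm38/mm10 as build. Per the file headers, HOMER's analyzeRepeats produced the deposited counts over exons of 1 transcript per gene, unadjusted, and the deposited FPKM, scaled by transcript length and tag total. No strand option is named in the headers, so reads of opposite-strand genes cannot be told apart. Such an exon overlap exists for 11 of the 30 genes: Aldoa, Gapdh, Gpd2, Gpi1, Hif1a, Hk1, Hk3, Pfkm, Pfkp, Slc2a1 and Tpi1. A transcript of another gene at least 95% identical over 200 or more bases exists for 11 members. Coordinates are mm10 and count from 1.

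The test on counts was that of edgeR 4.0.16, run in R 4.3.3, with filterByExpr, TMM, a two-sided quasi-likelihood F-test over all 8 libraries with 1 mean per group, and Benjamini-Hochberg adjustment over all tested genes within each of 5 comparisons, with a threshold of 0.05. SE was obtained as the size of the log2 fold change over the root of F. The script was tested on simulated data. Replicate numbers recur in every group; deviations from group means correlated between groups with 6 coefficients from 0.490 to 0.675, so the numbers pair the libraries, and in the headers each number forms its own run of library identifiers. The common dispersion of 0.0853 became 0.0178 once the block was added, at 4 and 3 residual degrees of freedom. Alternatives were DESeq2 1.42.0, other filters and scalings, only the groups compared, limma 3.58.1 on log2 FPKM with a pseudocount of 1 or 0.1 (fold changes on that scale understate low genes), and each library left out.

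Members called in at least 1 comparison by either fit are named with the value in every library, the others by ranges or by library, and listed pathway genes where called, with Myc, Txnip, Arnt, Vhl, Egln1 and Egln3 in any case. The members, lists and tests were chosen with earlier results of these data known. Promoters are from RefSeq, GRCm38.p6.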

Additional observations from a re-analysis of the deposited data

How the results depend on the processing

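Without the replicate block 37, 235, 0, 2 and 134 genes were called for the early guide effect, the late guide effect, their difference, and the late over early gate in control and in sgStat5 cells, and 0, 1, 0, 0 and 0 of the 30 members. No result reversed under any alternative. The replicate block moved the calls to 321, 1132, 0, 1507 and 3144 genes and 1, 7, 0, 9 and 15 members, and DESeq2 to 247, 609, 2, 552 and 1623 genes and 1, 3, 0, 3 and 10 members (Eno1, Pgk1 and Pgam1 in the late gate). With no filter on low counts there were 114 (early), 83 (gates, control) and 760 (gates, sgStat5) genes and 1, 1 and 7 members. Fitting only the groups compared gave 3 (early), 4 (late), 0 (gates, control) and 2 (gates, sgStat5) genes and 0 members in the late gate. A filter of 5 CPM in 2 libraries gave 231 genes for the gates in sgStat5 cells; FPKM with limma gave 24 genes for the early effect at either pseudocount and 77 for the gates in sgStat5 cells at 0.1. Leaving out 1 library gave 0 to 30, 63 to 151, 0 to 0, 0 to 32 and 0 to 529 genes without the block, in the order above, and 104 to 347, 401 to 1242, 0 to 6, 161 to 1817 and 886 to 3060 with it. Members called ranged over 0 to 0, 0 to 1, 0 to 0, 0 to 0 and 0 to 3 without the block, and 0 to 1, 1 to 9, 0 to 0, 1 to 10 and 6 to 15 with it. The median over members stayed negative in all settings run: -0.24 to -0.03 (early), -0.36 to -0.09 (late), -0.22 to -0.04 (difference), -0.31 to -0.09 (gates, control) and -0.37 to -0.23 (gates, sgStat5). The cause of these changes was not tested. Fits that left a library out also had fewer samples, and the part of that was not tested either. Depth limits members near 1 CPM, such as Eno2, and also Slc16a3 and Hk3 in the late gate, where both were lower than in the early gate.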
